A study of Mus musculus with 141 samples.

Results

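Carbonic anhydrases are zinc enzymes that interconvert carbon dioxide and bicarbonate, and 10 mouse genes of the family (Car1, Car2, Car3, Car4, Car5a, Car5b, Car8, Car12, Car14 and Car15) were followed by name among the 24423 genes measured. The data were RNA-seq profiles of liver, lung and kidney from 47 Collaborative Cross strains, a panel of inbred lines whose genomes are different mosaics of the same founders. A strain contributed 1 male aged 8 to 12 weeks, and all mice alike had spent 6 hours a day for 2 weeks in clean-air chambers, on the NTP 2000 diet, so that the 3 groups were the 3 tissues of the same 47 mice with 1 library each. With 1 mouse per strain and no batch labelled, a difference between strains cannot be told apart from a difference between individual mice, their dissections or sequencing batches.

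Carbon dioxide hydration runs slowly on its own, and the enzymes place it where bicarbonate or protons are needed. Cytosolic forms (Car1, Car2, Car3) serve red blood cells, ion transport and muscle or fat. Membrane forms face the outside of the cell: Car4 and Car15 by a lipid anchor, Car12 and Car14 by a membrane-spanning segment. The mitochondrial forms Car5a and Car5b supply bicarbonate to carboxylating enzymes such as those that start the urea cycle and gluconeogenesis. Car8 is a related protein without the enzymatic activity, known for binding the IP3 receptor in neurons.

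The zinc ion is held by 3 histidines, and the stretch that encodes the first and second of them is shown because it is the part of the active site that the enzymes share. The coding sequences of 9 members below are from the GENCODE vM1 transcripts on NCBIM37, 5′ to 3′, with the codons at the first and second zinc-site positions in capitals. The codon at both positions was CAT or CAC, for histidine, in each of these 9 genes. The stretch was located by a pattern that asks for histidine at the second position, so only the first was free to differ.
Car1: actcagttcCATtttCACtggggcaactca
Car2: atccagtttCACtttCACtggggctcatct
Car3: cgccaattcCATcttCACtggggctcctct
Car4: gtacagttgCACctgCACtggtcaaatggg
Car5a: aagcagtttCATttcCACtggggagcaaca
Car5b: aagcagtttCATtttCATtggggagccatt
Car12: gagcagctgCACttgCACtgggggaaccgc
Car14: gcccagctcCACctgCACtggggtcagaga
Car15: ctgcagctgCACttcCACtggggcagccca

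Total counts ran from 1738046 to 42158454 per library in liver, 2829104 to 17585682 in lung and 3046695 to 15028553 in kidney. A large part of many libraries came from Rn45s, the ribosomal RNA precursor, which took 0.321% to 69.0% of counts in liver, 0.695% to 71.7% in lung and 0.146% to 63.1% in kidney. The libraries with the largest share of counts in 10 genes were CC033 in liver (92.5%), CC015 in lung (91.7%) and CC027 in kidney (84.9%). TPM divides counts by transcript length and by the library's sum, and CC015 had the lowest lung TPM of 5 of the 7 family members with a median count of at least 10 there. The tissue contrasts, overlaps and coefficients of variation therefore used CPM, each count as a share of its library total after TMM scaling. That scaling sets the bulk of genes level across libraries. Correlations between tissues and between members used TMM-normalized TPM. Levels of genes within a tissue are in TPM, and the lowest and highest strains named with them are by TPM without TMM. By CPM they can be other strains. For Car2 in lung, CC015 was lowest by TPM but had 38.2 CPM, against a median of 38.1. A count of 3 or less was treated as not resolved, and such floors and the intervals on pooled counts cover counting error only. The tissue labels matched their markers by medians: summed hepatocyte genes had a median of 91866 CPM in liver against 52.5 in lung and 147 in kidney, summed alveolar type 2 genes 4982 in lung against 22.1 in liver and 10.9 in kidney, and summed proximal tubule genes 27543 in kidney against 44.8 in liver and 214 in lung. The highest libraries reached 513 CPM of hepatocyte genes in lung, 913 in kidney, and 1118 CPM of proximal tubule genes in liver. Abca3 of the alveolar type 2 list averaged more in kidney (5.63 CPM) than in lung (3.40).

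The make-up of the family differed between the tissues, although Car3 was the highest member in at least some libraries of each. In liver, Car3 held a median of 93.9% of the summed TPM of the 10 genes and was the highest of them in 47 of 47 libraries. In lung, Car4 held 36.0%, Car3 29.0%, Car2 15.2% and Car8 10.4% (medians), and Car4 was the highest in 29 libraries and Car3 in the other 18. In kidney, Car2 held 45.1%, Car3 14.2%, Car4 12.5%, Car14 9.78%, Car15 7.15% and Car5b 5.53%, and Car2 was the highest in 42 libraries and Car3 in the other 5. The summed TPM had a median of 3058 in liver (705 to 7590), 635 in lung (125 to 1223) and 1143 in kidney (675 to 2606).

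**Figure D1:**
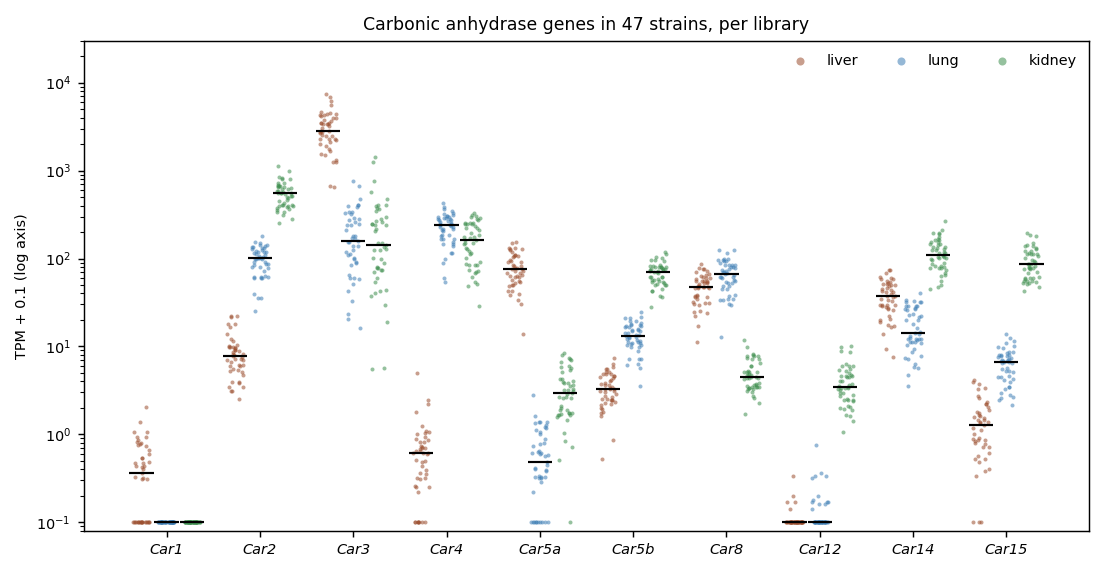
TPM + 0.1 on a log axis of the 10 genes in each library, with liver, lung and kidney side by side for each gene and the median of 47 libraries as a black line. Car3 in liver, with a median of 2828 TPM, stands above every other gene and tissue, and Car1 lies at the bottom of the axis in every lung and kidney library.

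**Figure D2:**
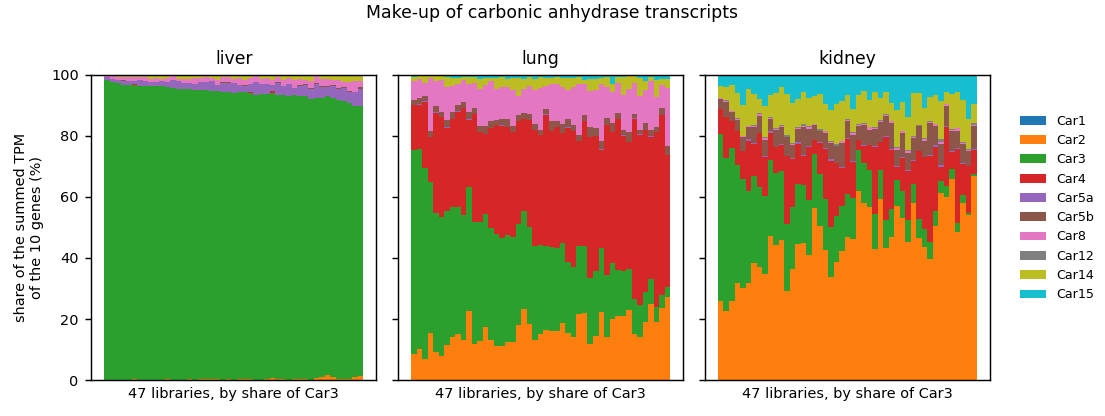
Share of the summed TPM of the 10 genes in each library (stacked, percent), with the 47 libraries of a tissue ordered by the share of Car3. Liver is nearly all Car3 (88.5% to 98.1%), while the share of Car3 runs from 3.27% to 67.0% in lung and from 0.363% to 54.8% in kidney.

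Among the cytosolic genes, Car2 (chr3:14886426-14900769, + strand, NCBIM37) encodes the fast and widespread isoform that serves acid secretion and bicarbonate recovery in the kidney tubule. Its kidney TPM was lowest at 255 (CC059), had a median of 554 and reached 1134 (CC038). In lung it ran from 24.9 (CC015) through a median of 101 to 179 (CC035), and in liver from 2.39 (CC019) through 7.64 to 22.2 (CC006), with a median of 47 counts. Kidney did not overlap lung or liver on the CPM scale, whereas the lowest lung library (22.8 CPM) fell just inside the liver range, which ended at 23.4 CPM.

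Car3 (chr3:14863538-14872351, + strand) is the cytosolic isoform of muscle, fat and liver and has little of the usual activity. Liver TPM ran from 658 (CC033) through a median of 2828 to 7369 (CC036), lung from 16.02 (CC029) through 157 to 763 (CC030) and kidney from 5.42 (CC017) through 142 to 1429 (CC030). Every liver library lay above every lung and kidney library in CPM, and lung and kidney overlapped over most of their ranges. Among the members with a median count of at least 10 in a tissue, Car3 varied most over mice in lung and in kidney. Its coefficient of variation in CPM was 116% in kidney, above 98.7% of the genes with a median count of at least 10 there, and 79.7% in lung, above 96.2% of genes, against medians over all such genes of 24.1% and 24.9%. In liver it was 47.6%, above 83.2% of genes. Counting error at these depths was a CV of 7.06% in kidney, 5.28% in lung and 1.0004% in liver.

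Car1 (chr3:14766217-14778459, - strand), the isoform of red blood cells and colon, was listed at 0 counts in all 47 lung and all 47 kidney libraries. In liver it had a median of 1 count and at most 16 (CC010, 0.67 TPM), the highest TPM being 1.93 from 5 counts (CC027), with 3 counts or fewer in 39 libraries, and 87 counts over the whole group (0.272 CPM, 95% Poisson interval 0.218 to 0.335). With 3 counts taken as the limit that a count of 0 allows, this leaves up to 0.00437 CPM over the lung group and 0.00610 over the kidney group, and the 95% Poisson upper limits are 0.00537 and 0.00750. Gapdh, which every cell uses, was also listed at a median of 0 in all 3 tissues, so a 0 in these tables need not mean that a transcript was missing, and no fold was formed for Car1. Of the 50-base windows of the Car1 transcript, 11.9% also occur elsewhere in NCBIM37, which bears on uniquely aligned reads.

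The mitochondrial pair differed in the tissue where each was highest. Car5a (chr8:124440026-124468804, - strand) ran in liver from 13.8 TPM (CC033) through a median of 76.1 to 152 (CC068). In kidney it ran from 0 (CC004) through 2.83 to 8.21 (CC046) with a median of 10 counts, and in lung from 0 (in 10 libraries) through 0.38 to 2.71 (CC010) with a median of 1 count. Car5b (chrX:160414754-160465929, - strand) ran in kidney from 28.2 TPM (CC027) through 69.9 to 118 (CC042), in lung from 3.45 (CC015) through 12.9 to 24.4 (CC043) and in liver from 0.42 (CC029) through 3.17 to 7.26 (CC017). On the CPM scale, liver lay wholly above the other tissues for Car5a and kidney wholly above them for Car5b. Of their 50-base windows, 6.75% (Car5a) and 9.83% (Car5b) occur elsewhere in the genome.

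Their promoters are shown because these 2 genes encode the same activity in the same organelle. The 250 bases before each start are from RefSeq on GRCm38.p6, a later build than that of the files, on the - strand of each gene and with each CG in capitals. The Car5a stretch (chr8:121944913-121945162) holds 0 CG and the Car5b stretch (chrX:164028011-164028260) holds 12. Over 32851 promoters of the same length, the median was 6 CG, and 7.87% held none.
Car5a: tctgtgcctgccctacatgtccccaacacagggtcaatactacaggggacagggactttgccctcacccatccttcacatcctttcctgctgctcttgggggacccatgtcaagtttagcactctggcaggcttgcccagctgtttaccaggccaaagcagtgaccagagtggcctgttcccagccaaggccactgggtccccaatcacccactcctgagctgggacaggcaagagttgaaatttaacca
Car5b: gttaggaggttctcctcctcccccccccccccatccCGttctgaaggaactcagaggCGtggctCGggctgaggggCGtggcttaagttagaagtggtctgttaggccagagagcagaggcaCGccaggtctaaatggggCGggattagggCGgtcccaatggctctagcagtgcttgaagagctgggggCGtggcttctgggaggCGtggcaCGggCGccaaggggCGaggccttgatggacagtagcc

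Of the membrane forms, Car4 (chr11:84771288-84779546, + strand), known from lung capillaries and kidney tubules, ran in lung from 53.8 TPM (CC015) through a median of 242 to 425 (CC043) and in kidney from 28.7 (CC024) through 162 to 331 (CC046). In liver it ran from 0 to 4.84 TPM (CC033) the median being 0.51, or 2 counts. The CPM range of lung (25.03 to 99.1) lay inside that of kidney (15.9 to 121), and kidney was the more variable, with a CV in CPM of 45.2% (above 84.6% of genes) against 24.2% in lung (above 48.4% of genes).

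Car14 (chr3:95701691-95708614, - strand), a transmembrane form of kidney tubules and hepatocytes, ran in kidney from 44.4 TPM (CC032) through 111 to 265 (CC010), in liver from 7.53 (CC004) through 36.9 to 74.7 (CC010) and in lung from 3.44 (CC015) through 14.3 to 40.2 (CC003). All kidney libraries lay above all lung libraries in CPM, and liver overlapped both. Car15 (chr16:17835369-17838457, - strand), a lipid-anchored kidney form, ran in kidney from 43.0 TPM (CC031) through 85.8 to 194 (CC053), in lung from 2.06 (CC031) through 6.63 to 13.7 (CC006) and in liver from 0 through 1.19 to 4.02 (CC021), where the median was 4 counts. Kidney lay wholly above the other tissues. Car12 (chr9:66561493-66614652, + strand), a transmembrane form, was low in kidney too, with TPM from 0.96 (CC020) through 3.32 to 10.01 (CC001). It had 5 counts over all 47 liver libraries and 30 over all lung libraries.

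Car8 (chr4:8070514-8166188, - strand), the form without enzymatic activity, was not rare: its lung TPM ran from 12.6 (CC015) through 67.2 to 125 (CC033) and its liver TPM from 11.3 (CC033) through 47.9 to 86.4 (CC024). Kidney was lower, from 1.62 (CC005) through 4.36 to 11.8 (CC053), and did not overlap either tissue in CPM. Its CV in CPM over mice was 20.8% in liver, above 32.8% of genes, and 22.0% in lung, above 42.7% of genes.

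Within a tissue, the order of the members by median TPM was Car3, Car5a, Car8, Car14, Car2, Car5b, Car15, Car4 and Car1 in liver, Car4, Car3, Car2, Car8, Car14, Car5b, Car15 and Car5a in lung, and Car2, Car4, Car3, Car14, Car15, Car5b, Car8, Car12 and Car5a in kidney. The ranges of neighbours in these orders overlapped in every case but Car3 over Car5a in liver and Car5b over Car8 in kidney. A filter used for eQTL mapping, which asks for a TMM-normalized TPM over 1 in more than 50% of libraries and for no single library standing apart, kept 7 members in liver (all but Car1, Car4 and Car12), 7 in lung (all but Car1, Car5a and Car12) and 9 in kidney (all but Car1).

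The tissues were compared with limma-voom in a fit over 12127 genes with strain as a block, Benjamini-Hochberg adjustment over all of them, and a call at q ≤ 0.1 with a log2 fold change of 1 or more in either direction. Of the 10 members, 9 entered the fit and Car1 did not, since a gene needed over 1 CPM in 30% of the libraries. A single tissue can carry a gene past that filter, as kidney did for Car12, so the counts below describe these 9 and support nothing by themselves. The comparisons share their libraries in pairs. In whole tissue, more cells that express a gene and more RNA per cell cannot be told apart.

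In liver against lung, 4 members were called higher in liver (Car3, Car5a, Car8 and Car14), beside 23.9% of all genes tested, and 2 higher in lung (Car2 and Car4), beside 31.0%. Car3 averaged 2923 ± 1390 CPM in liver and 68.3 ± 54.5 in lung (SD, n = 47), a 50.2-fold difference (log2 5.65 ± 0.20 SE, q = 2.7e-48, limma-voom). Car14 averaged 37.5 ± 13.3 CPM in liver and 6.03 ± 2.46 in lung, 6.14-fold higher in liver in 47 of 47 mice (log2 2.62 ± 0.09, q = 3.46e-49, limma-voom). Car2 averaged 37.7 ± 8.19 CPM in lung and 9.71 ± 5.20 in liver, 4.14-fold higher in lung in 47 of 47 mice (q = 3.7e-50, limma-voom). Car4 was called higher in lung (63.4 ± 15.3 CPM against 0.686 ± 1.74, q = 9.02e-64, limma-voom), and Car5a higher in liver (58.1 ± 16.9 CPM against 0.148 ± 0.152, q = 3.02e-84, limma-voom), each with a median of 1 or 2 counts in the low tissue. The liver mean of Car4 leaned on CC033, with 11.9 CPM from 7 counts, and was 0.442 ± 0.50 CPM without it (n = 46), while the call held without CC015, CC027 and CC033 (log2 -7.36). Over all libraries together, Car5a was 433-fold higher in liver than in lung (95% counting interval 354 to 535).

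Car8 lay at the edge of the call in this comparison. It averaged 166 ± 34.6 CPM in liver and 83.1 ± 18.3 in lung and was higher in liver in 44 of 47 mice (log2 1.02 ± 0.07, q = 7.78e-28, limma-voom). Without TMM the direction was the opposite, at -0.36 on total counts and -0.47 for log2(TPM + 1). Those scalings also moved the median of all genes, to -1.43 and -1.21, against -0.06 with TMM. Relative to the median of all genes, Car8 stood at 1.07 with TMM, 1.07 on total counts and 0.74 for log2(TPM + 1). Car5b was 0.53 lower in liver on the log2 scale and Car15 0.91 lower, both short of the fold threshold. For log2(TPM + 1) both passed it, at -1.72 and -1.69, where the median of all genes was -1.21. Relative to the median of all genes, Car5b stood at -0.47 with TMM and -0.51 for log2(TPM + 1). Car15 stood at -0.86 and -0.48. Car12 was not resolved in either tissue and its fitted direction flipped between settings, so no fold is given. Of the 9 members, 3 (Car3, Car4 and Car5a) did not overlap between the groups, beside 26.1% of all genes tested.

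In liver against kidney, 3 members were called higher in liver (Car3, Car5a and Car8), beside 15.6% of all genes tested, and 5 higher in kidney (Car2, Car4, Car5b, Car12 and Car15), beside 20.8%. Car2 averaged 309 ± 63.7 CPM in kidney against 9.71 ± 5.20 in liver, 34.1-fold higher (q = 1.8e-85, limma-voom). Car15 averaged 31.9 ± 10.3 CPM against 0.951 ± 0.891, 38.2-fold higher in kidney (q = 1.94e-71, limma-voom). Car5b was 10.9-fold higher in kidney and Car5a 49.0-fold higher in liver, so the mitochondrial isoforms went in opposite directions in the same 47 mice. Car8 was 19.0-fold higher in liver (166 ± 34.6 against 9.01 ± 3.205 CPM, q = 4.9e-79, limma-voom) and Car3 34.7-fold higher. Over all libraries together, Car4 was 184-fold higher in kidney (95% counting interval 154 to 222) and Car12 303-fold higher (130 to 933). Car14 was higher in kidney in 43 of 47 mice but by 0.68 on the log2 scale, which did not reach the fold threshold. Of the 9 members, 7 did not overlap between the groups, all but Car12 and Car14, beside 13.2% of all genes tested. Car12 overlapped through the liver library of CC033 alone, where 1 count came to 1.70 CPM.

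In lung against kidney, 1 member was called higher in lung (Car8), beside 25.5% of all genes tested, and 6 higher in kidney (Car2, Car5a, Car5b, Car12, Car14 and Car15), beside 20.6%. Car8 was 9.37-fold higher in lung (q = 3.14e-68, limma-voom). Car15 was 20.3-fold higher in kidney, Car14 9.85-fold, Car2 8.24-fold and Car5b 7.60-fold, each in 47 of 47 mice. Car12 was 108-fold higher in kidney over all libraries together (95% counting interval 76.0 to 161). Of the 30 lung counts behind this fold, 11 came from CC039, and 34 lungs had 0, a spread that the interval does not cover. Car4 differed by 0.01 on the log2 scale (SE 0.11, q = 0.94, limma-voom), with 63.4 ± 15.3 CPM in lung and 67.4 ± 30.4 in kidney, and was higher in lung in 23 mice and in kidney in 24. Car3 was 0.53 lower in lung (SE 0.20, q = 0.0105, limma-voom), short of the fold threshold, with lung higher in 19 mice and kidney in 28. For log2(TPM + 1) the difference was 0.10 in the other direction, where the median of all genes was 0.47, against 0.04 with TMM. Relative to the median of all genes, Car3 stood at -0.57 with TMM and -0.37 for log2(TPM + 1). Of the 9 members, 6 did not overlap between the groups, all but Car3, Car4 and Car5a, beside 22.6% of all genes tested.

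**Figure D3:**
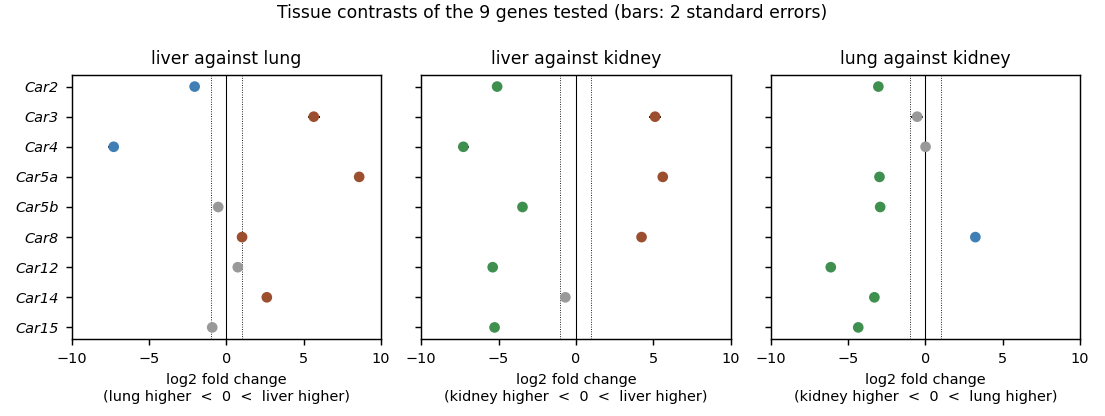
Log2 fold changes of the 9 members tested in the 3 tissue contrasts (points, limma-voom with TMM) with bars of 2 standard errors, many of them hidden by the point, and dotted lines at the fold threshold. Points take the color of the higher tissue where called and are grey otherwise, and only Car8 is called higher in lung against kidney.

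The other genes of bicarbonate handling were read from the same fit. Of all genes tested, 23.9% were called higher in liver and 31.0% in lung in liver against lung, 15.6% in liver and 20.8% in kidney in liver against kidney, and 25.5% in lung and 20.6% in kidney in lung against kidney. Of 6 further carbonic anhydrases, 3 were tested, and the named ones were Car9, a hypoxia-responsive membrane form, at 15.4 CPM in kidney, 1.17 in lung and 0.420 in liver, and Car13, a cytosolic form, at 4.39 CPM in lung, 3.01 in kidney and 0.924 in liver. Both were called higher in lung and in kidney than in liver, and Car9 in kidney than in lung. In liver both were at or under 3 counts in the median library, and the kidney mean of Car9 had an SD of 15.4 CPM. Of 22 transporters of bicarbonate and protons, 17 were tested. In liver against kidney 0 were called higher in liver and 13 in kidney (median log2 fold change -3.54, against -0.0034 over all genes tested), in liver against lung 1 and 10 (median -1.52, against -0.06), and in lung against kidney 2 and 9 (median -1.92, against 0.04). Of the 22, only 6 were over 3 counts in the median liver library, so many of the folds against liver are not resolved. With pooled counts for genes at or under 3 counts in the median library, the medians were -3.14, -1.92 and -1.92, in the same order.

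Slc9a3, the sodium-proton exchanger of the proximal tubule, averaged 71.8 CPM in kidney against 0.380 in liver and 0.276 in lung, and Slc26a4, the chloride-bicarbonate exchanger pendrin, 39.6 CPM in kidney against 1.10 and 4.28. Slc26a9, a chloride transporter of airway epithelium, averaged 25.5 CPM in lung with 17 counts over all liver and 20 over all kidney libraries. Of 9 enzymes that use bicarbonate, 8 were tested, and all 8 were called higher in liver than in lung (median log2 fold change 2.58, against -0.06 over all genes tested). In liver against kidney 3 were called higher in liver and 0 in kidney (median 0.27, against -0.0034), and in lung against kidney 0 in lung and 5 in kidney (median -2.51, against 0.04). Cps1, the mitochondrial enzyme that takes bicarbonate into the urea cycle, averaged 10203 CPM in liver against 8.88 in lung and 8.92 in kidney, the same tissue as Car5a. Pcx, pyruvate carboxylase, averaged 2.46 CPM in liver, 1.79 in kidney and 0.204 in lung. Over the 47 livers, Car5a followed neither Cps1 (r = 0.13, rho = 0.13, permutation p = 0.372 and 0.378, q = 0.58) nor Pcx (r = 0.03, rho = 0.03, permutation p = 0.824 and 0.820, q = 0.90) past the threshold.

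Whether a mouse high in 1 tissue was high in another was tested for each member with a median count of at least 10 in both tissues, with 18 correlations over the 47 mice on rank inverse normal values of TMM-normalized TPM, 100000 permutations, and Benjamini-Hochberg adjustment over the 18. Of these, 3 passed q ≤ 0.1. Car3 in lung and kidney had r = 0.45 (rho = 0.43, permutation p = 0.00166 and 0.00273, q = 0.0299 and 0.0491), and r = 0.49 without the 2 mice farthest from the lung median. Car14 in liver and lung had r = 0.38 (rho = 0.39, permutation p = 0.00848 and 0.00759, q = 0.0697 and 0.0683), and r = 0.32 without the 2. Car2 in liver and kidney had r = 0.37 (rho = 0.33, permutation p = 0.0116 and 0.0245, q = 0.0697 and 0.147), and r = 0.28 without the 2, and it did not pass by rho, on TPM without TMM (r = 0.20) or on log2 CPM without ranks (r = 0.34). Car3 in liver did not pass with either lung (r = -0.07, permutation p = 0.658) or kidney (r = 0.11, permutation p = 0.464).

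**Figure D4:**
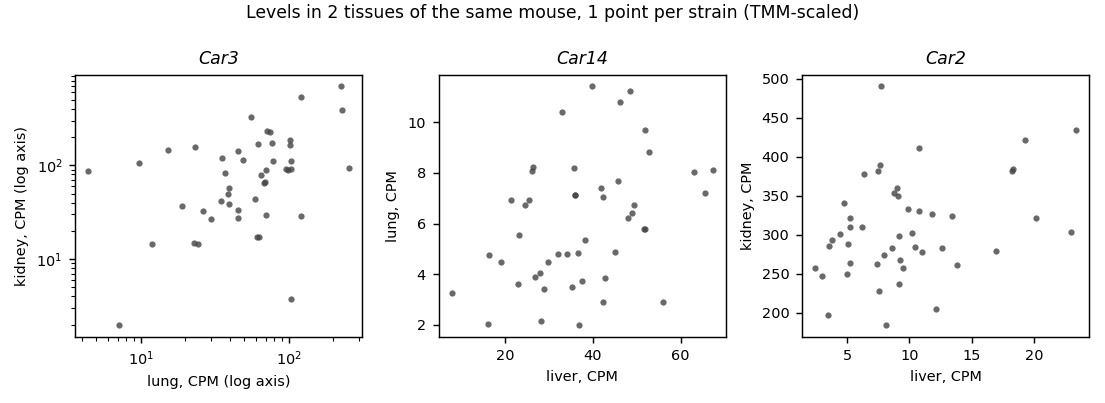
CPM of Car3 in lung and kidney (log axes), Car14 in liver and lung and Car2 in liver and kidney (linear axes), with 1 point for each of 47 mice. The clouds rise from left to right, and mice at either end of 1 axis are found in the middle of the other. The r of 0.45, 0.38 and 0.37 in the text are on ranked TMM-normalized TPM, not on the CPM shown.

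Pairs of members within a tissue were tested in the same way, with 72 correlations adjusted together, and 2 passed. Car3 and Car2 are neighbours on chromosome 3 with 14075 bases between them, and their r was -0.29 in liver (permutation p = 0.0456, q = 0.33), -0.21 in lung (permutation p = 0.151, q = 0.52) and -0.13 in kidney (permutation p = 0.392, q = 0.73), none past the threshold. Car3 and Car5b in lung had r = 0.60 (rho = 0.55, permutation p = 3e-05 and 5e-05, q = 0.00216 and 0.0036), and r = 0.59 without the 2 mice farthest from the Car3 median. Car3 and Car14 in liver had r = 0.44 (rho = 0.40, permutation p = 0.0024 and 0.0057, q = 0.0864 and 0.160), and r = 0.48 without the 2, and did not pass by rho or without the 3 strains CC015, CC027 and CC033 (r = 0.37, q = 0.22). On TPM without TMM, 50 of the 72 pairs passed.

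Members were also set against marker genes of cells known to use them, in 36 correlations adjusted together, of which 4 passed. Car3 in lung followed the summed CPM of 5 adipocyte genes (Adipoq, Plin1, Lep, Retn and Cfd) with r = 0.85 (rho = 0.83, permutation p = 1e-05 for both, the smallest the permutations can give, q = 0.00036 for both), and r = 0.81 without the 2 mice farthest from the Car3 median. In kidney r was 0.61 (rho = 0.59, permutation p = 2e-05 and 3e-05, q = 0.00036 and 0.00054), and 0.61 without the 2. In liver r was 0.18 (rho = 0.14, permutation p = 0.235 and 0.348, q = 0.58 and 0.52). The adipocyte sum ran from 0.356 to 35.7 CPM in lung (median 7.82) and between 0.3752 and 60.9 in the kidneys (median 8.09), with Adipoq, Lep and Retn over 3 counts in the median library and Plin1 and Cfd at or under that. In liver its median was 0.296 CPM, and none of the 5 genes was over 3 counts in the median library.

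The lung with the least Car3 (CC029, 4.41 CPM) had 0.356 CPM of adipocyte genes, and the kidney with the least (CC017, 1.995 CPM) had 0.554. The 3 lungs with the most Car3 (CC013, 256.5 CPM, CC059, 231 CPM, and CC030, 225 CPM) had 32.9, 35.7 and 24.9 CPM. The 3 kidneys with the most (CC030, 696 CPM, CC043, 532 CPM, and CC059, 386 CPM) had 10.6, 29.0 and 60.9 CPM. CC030, CC043 and CC059 were thus among the 5 highest mice for Car3 in both organs. Car5b in lung, which moved with Car3, had rho = 0.64 with the same adipocyte sum over the 47 lungs, while the other 5 members measured there had rho from -0.19 to 0.25, which is a description chosen after these values were seen. The part of fat in these values was not tested.

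Car3 in lung also passed with 9 skeletal muscle genes (r = 0.37, rho = 0.38, permutation p = 0.0101 and 0.00938, q = 0.098 and 0.0844), and r = 0.26 without the 2 mice farthest from the Car3 median. That sum ran from 3.57 to 1158 CPM in lung (median 47.5) and from 0.289 to 3037 CPM in liver (median 11.9), where r with Car3 was 0.20 (rho = 0.25, permutation p = 0.183 and 0.0904, q = 0.55). In kidney, where 7 of the 9 muscle genes were at or under 3 counts in the median library, r was -0.20 (permutation p = 0.184, q = 0.55). Car15 in kidney passed with 7 principal cell genes of the collecting duct (r = 0.37, rho = 0.42, permutation p = 0.0109 and 0.00349, q = 0.098 and 0.0419), and r = 0.39 without the 2, and Avpr2 and Scnn1b of that list were at or under 3 counts in the median kidney. Neither of these 2 passed on TPM without TMM, with standardized marker values, or without the strains CC015, CC027 and CC033 (r = 0.37, q = 0.16 for muscle, r = 0.35, q = 0.18 for principal cells).

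The remaining 32 did not pass. Among them, Car2 in kidney had r = 0.14 with intercalated cell genes, r = 0.14 with principal cell genes and r = 0.14 with Slc4a4, a bicarbonate exporter of the proximal tubule. Car4 had r = 0.17 with aerocyte genes in lung, r = 0.20 with general capillary genes in lung and r = 0.23 with proximal tubule genes in kidney. Car2 had r from 0.08 to 0.14 with erythroid genes in the 3 tissues, where the globin genes Hba-a1, Hba-a2, Hbb-b1, Hbb-b2 and Hbb-bt were at or under 3 counts in the median library, so the erythroid sum rests on few genes.

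**Figure D5:**
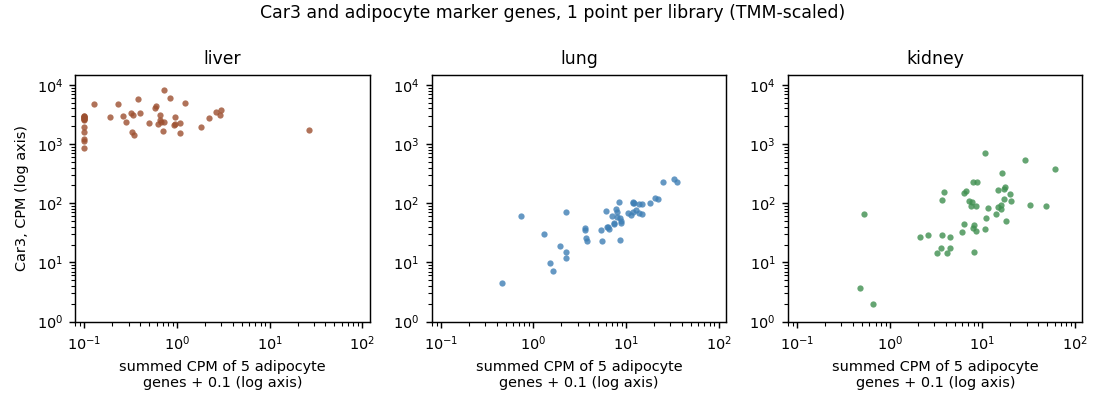
Car3 (CPM, log axis) against the summed CPM of 5 adipocyte genes + 0.1 (log axis), with 1 point per library. Lung libraries lie along a rising band (r = 0.85) and kidney libraries along a wider one (r = 0.61). Liver libraries hold 867 to 8293 CPM of Car3 with no such band (r = 0.18). These r are on ranked values, with Car3 as TMM-normalized TPM rather than the CPM shown.

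For the 9 members with a median count of at least 10 in the tissue of their highest median TPM, which left out Car1 and set Car4 and Car8 in lung, the 3 genes most like each were ranked by Spearman rho of log2 CPM over the 47 libraries of that tissue, given as a description with no p. Car5a in liver stood closest to Nup133, a nuclear pore gene (rho = 0.68), Tldc1 (0.68) and Polg, the mitochondrial DNA polymerase (0.62), out of 8825 genes. Nup133 lies on chromosome 8 as Car5a does, with 1952219 bases between them in NCBIM37. Car4 in lung stood closest to Piezo2, a mechanically gated channel (0.62), Foxn3 (0.61) and Pxdn (0.60). Car12 in kidney stood closest to Sspo (0.65), Inmt (0.58) and Pfdn6 (0.57), and Car15 in kidney to Slc16a5 (0.60), 1700052K11Rik (0.55) and Dusp9 (0.55).

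Car8 in lung stood closest to Cxadr, an epithelial junction receptor (0.59), Agr2 (0.56) and Msr1 (0.55). Car2 in kidney stood closest to Ppfibp2 (0.55), Gstt3 (0.55) and Sccpdh (0.53), Car14 in kidney to Snhg12 (0.55), Tchh (0.55) and Slc6a4 (0.55), Car3 in liver to Gemin6 (0.53), F11 (0.52) and Dctn2 (0.47), and Car5b in kidney to Pomp (0.45), Rcl1 (0.44) and Ube2e2 (0.41). Tchh lies 2448692 bases from Car14 on chromosome 3. No family member was among the 3 nearest genes of another.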

How the data were processed

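RNA of liver, lung and kidney of 1 male mouse from each of 47 Collaborative Cross strains was sequenced, 1 library per tissue and mouse. The authors filtered the reads, aligned them with STAR 2.5.3a to genomes made for each strain from Build37 (mm9), used uniquely aligned reads and quantified genes with RSEM, so that reads shared by near-identical genes are lost. The expected counts that the authors deposited are on the scale of reads (25 were not whole), and the TPM that the authors deposited scales them by transcript length and library. The study's methods also fit sequencing batch, but no batch was among the labels used here, so none was fitted. In the correlations over mice, batch can therefore not be told apart from strain. No 2 libraries held identical values.

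Counts were rounded and scaled by TMM (edgeR 4.0.16), and genes with over 1 CPM in at least 30% of libraries entered a limma-voom fit of tissue and strain (limma 3.58.1 in R 4.3.3). The paired design comes from the strain labels and the study's methods, which used 1 mouse per strain and fit strain as well. The 3 libraries of a strain are thus from the same mouse. Deviations from the tissue means of the same mouse had median correlations of 0.17 (liver and lung), 0.17 (liver and kidney) and 0.21 (lung and kidney). The fit and the correlations were tested on simulated data. For the fit, genes were called at a smaller fold change than the threshold used here, with no strain effect simulated. No change was put into genes of low mean, so that test checks neither the call rule, the pairing nor the low members. Correlations used rank inverse normal values and two-sided permutation tests (Python 3.11.15, numpy 2.4.6, scipy 1.17.1), so that 1e-05 is the smallest p. Coding sequences came from GENCODE vM1 and promoters from RefSeq, where 6 of 10 members were matched. The coding stretch of 1 member is not reported here. All 10 members are named, with the 3 genes most like each of the 9 that had enough counts, up to 3 list genes per tissue pair with the largest called change, of which some are described, and marker genes beside a result. The members and gene lists were chosen with earlier results of these data known. Alternatives covered thresholds, scaling, DESeq2 1.42.0, edgeR's quasi-likelihood test, the filter, the block, the tissues fitted, rounding, TPM on a log scale, and the leaving out of strains.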

Additional observations from a re-analysis of the deposited data

How the results depend on the processing

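Libraries of 1738046 to 42158454 counts, up to 92.5% of them in 10 genes, limit the low members: Car1 in all tissues, Car4 in liver, Car5a in lung and Car12 in liver and lung are near or under 3 counts per library. The count of members past the threshold stayed within 1.5 times of 6 (liver against lung), 8 (liver against kidney) and 7 (lung against kidney) under every alternative run. Without the replicate block, that is with the paired mice taken as unpaired, it was 6, 8 and 7. Of 376 values of single members under an alternative, 342 kept their direction and side of the threshold, 16 passed it newly, 4 no longer passed and 14 changed sign.

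Changes of sign were limited to differences that were small or not resolved, and apart from scaling their cause was not tested. Car8 in liver against lung, 1.02 as reported, was -0.36 with total counts without TMM, -0.47 with log2(TPM + 1) and -0.48 with log2(TPM + 0.1). With DESeq2 size factors it was 0.78, with DESeq2 0.76, without strains CC032 and CC042 0.99 and with only the 2 tissues 0.99, all under the fold threshold. Car12 in liver against lung was -0.60 with total counts, -0.043 and -0.24 with log2(TPM + 1) and log2(TPM + 0.1), and -0.83 with edgeR. Car3 in lung against kidney was 0.00044 with total counts, 0.10 with log2(TPM + 1) and 0.11 with log2(TPM + 0.1). Relative to the median of all genes under the same setting, these values were -0.46, -0.37 and -0.45. Car4 in lung against kidney was -0.097 with no filter, -0.0013 without CC032 and CC042, -0.067 with only the 2 tissues, and -0.0137 without CC015, CC027 and CC033.

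Pairs of members that passed numbered 2 as reported, 50 on TPM without TMM, 1 by Spearman's rho and 1 without CC015, CC027 and CC033. Members that passed with markers numbered 4 as reported, and 2 on TPM without TMM, with the mean of standardized log2 CPM, and without those 3 strains. The correlations between tissues kept 2 to 4 past the threshold. The alternative without CC015, CC027 and CC033 was chosen after seeing the data.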
